A study of Mus musculus with 8 samples.

Results

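The genes described here are the 30 protein-coding genes between *Sult1a1* and *Spn* on mouse chromosome 7, the stretch that corresponds to the human 16p11.2 locus. They were chosen by position and matched by symbol to Ensembl identifiers, and they make up 30 of the 53379 genes in the deposited count table. The stretch runs from 126672865 to 127137823 in GRCm38, with 12 genes transcribed in the plus direction and 18 in the minus direction.

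Loss or gain of a copy of the human 16p11.2 locus is a recurrent cause of autism, and carriers can have altered head and brain size. Because the deletion removes neighbouring genes of unrelated function together, each gene has to be followed on its own to see what it does. The genes encode, among others, the kinase ERK1 (*Mapk3*), the glycolytic enzyme aldolase A (*Aldoa*), presynaptic proteins (*Doc2a*, *Prrt2*), a cullin-3 adaptor (*Kctd13*) and the shell protein of the vault particle (*Mvp*).

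Bulk RNA sequencing of cingulate cortex compared 4 wild-type samples (WT) with 4 Mvp KO samples, all from untreated male mice on a C57BL/6 background. The sample titles give no zygosity, while the paper states that its follow-up studies set homozygous *Mvp*-/- against *Mvp*+/+ mice. The *Mvp* allele is a gene trap carried in the germ line: a cassette encoding β-galactosidase fused to neomycin phosphotransferase, with a splice acceptor before it and a polyadenylation site after it, sits in the first intron. The line comes from 1 trapped clone, no other gene of the interval was targeted, and the study's methods list several ages at dissection without saying which was sequenced. The study's methods call replicates biological, while the labels name no animal for a sample.

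The depth lay between 28456504 and 42854368 counts per sample. Markers of excitatory cortical neurons summed to 1724 to 3229 CPM (counts scaled to a common library size) and none of the 4 was at 0, while T cell markers summed to at most 0.200 CPM. The summed level of oligodendrocyte markers ran from 1058 to 2150 CPM in WT and from 1193 to 4325 CPM in Mvp KO, and 0 of the 4 genes passed the test between genotypes described below. WT replicate 4 stood apart from the other samples, with a score of 71.5 on principal component 1 of the log2 CPM values against -20.4 to -2.78. All 5 neuronal activity genes were highest in it (sum 2316 CPM, against 448 to 1069 CPM elsewhere), as were the 3 interneuron markers (1349 CPM, against 570 to 693 CPM), the 3 pan-neuronal markers and 3 of the 4 excitatory markers, of which *Neurod6* was lowest in it. The test of the interval, the spread in WT and some of the fold changes are therefore also given without this sample. The WT levels per kilobase and the ratios between paralogs include it.

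Promoter sequences show how differently these neighbours are built. RefSeq promoter records matched 23 of the 30 genes, and the 250 bases before the start are printed for 5 of them, chosen to span the range of levels and to leave transcribed sequence out as far as the records allow (27 bases of the *Mvp* window are annotated as its exon 1). The *Aldoa* window lies within the annotated *Aldoa* gene, which runs from 126795234 to 126800751, and within *Fam57b* on the other strand. Capitals mark each CG dinucleotide, the site of DNA methylation in mammals, and coordinates are GRCm38 (p6).
Aldoa, chr7:126799255-126799504, minus strand: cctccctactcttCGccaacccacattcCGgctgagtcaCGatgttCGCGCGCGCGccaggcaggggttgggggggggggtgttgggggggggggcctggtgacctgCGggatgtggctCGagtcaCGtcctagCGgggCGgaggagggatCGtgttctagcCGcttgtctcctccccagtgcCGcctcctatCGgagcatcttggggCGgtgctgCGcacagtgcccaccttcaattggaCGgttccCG
Kctd13, chr7:126928629-126928878, plus strand: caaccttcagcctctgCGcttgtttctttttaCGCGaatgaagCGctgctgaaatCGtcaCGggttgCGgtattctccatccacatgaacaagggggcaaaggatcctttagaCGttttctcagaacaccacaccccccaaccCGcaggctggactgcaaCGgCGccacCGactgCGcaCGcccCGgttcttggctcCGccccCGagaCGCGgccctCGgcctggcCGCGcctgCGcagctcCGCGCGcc
Mvp, chr7:127014595-127014844, minus strand: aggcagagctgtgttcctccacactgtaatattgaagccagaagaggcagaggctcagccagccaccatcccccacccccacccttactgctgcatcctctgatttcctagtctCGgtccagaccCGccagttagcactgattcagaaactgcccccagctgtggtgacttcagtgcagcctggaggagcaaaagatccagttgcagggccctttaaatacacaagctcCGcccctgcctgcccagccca
Tbx6, chr7:126781233-126781482, plus strand: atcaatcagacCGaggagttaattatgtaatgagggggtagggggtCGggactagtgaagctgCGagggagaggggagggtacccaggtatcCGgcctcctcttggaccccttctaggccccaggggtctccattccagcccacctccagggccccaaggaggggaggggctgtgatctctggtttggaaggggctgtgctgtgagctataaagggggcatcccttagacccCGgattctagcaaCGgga
Spn, chr7:127137824-127138073, minus strand: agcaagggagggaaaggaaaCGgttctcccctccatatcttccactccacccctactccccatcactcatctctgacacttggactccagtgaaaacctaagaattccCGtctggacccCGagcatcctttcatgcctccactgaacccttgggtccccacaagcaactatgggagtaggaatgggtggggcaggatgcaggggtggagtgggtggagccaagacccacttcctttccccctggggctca

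These windows hold 21, 26, 3, 6 and 3 CG dinucleotides in the order printed. *Aldoa* has 3 promoter records, with 0, 21 and 19 CG, and the one printed is that with 21. With a window called CpG-rich when GC content was above 50% and the observed over expected CG ratio above 0.6, 12 of the 23 matched genes had at least 1 CpG-rich promoter, against 33.2% of the 27025 genes with a record. Among genes at 10 CPM or more in WT, 10 of 12 were CpG-rich, and the exceptions were *Fam57b* and *Taok2*. Below 10 CPM it was 2 of 11, *Kif22* and *Tmem219*. The share of CpG-rich genes among all genes at these levels was not computed, so this split is not read as particular to the interval. No record matched *Mapk3*, *Doc2a*, *Asphd1*, *Sez6l2*, *Cdipt*, *Prrt2* or *Zg16*. All of these but *Prrt2* and *Zg16* were above 10 CPM in WT. These are descriptions of letters in a window and not of methylation, which was not measured.

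*Mvp*, the targeted gene, fell in Mvp KO. The WT samples 1 to 4 had 6.81, 7.12, 7.89 and 5.49 CPM, and the Mvp KO samples had 1.45, 1.44, 2.13 and 1.51 CPM. Each WT sample was above each KO sample, a pattern with KO lower that 0.692% of all 16914 tested genes showed. The log2 fold change was -2.06 (standard error 0.186, 95% interval -2.48 to -1.64), and the adjusted p was 0.0162 (edgeR's quasi-likelihood test, adjusted after Benjamini and Hochberg over all genes tested). This threshold was passed by 0.00591% of tested genes, and the single gene was *Mvp*. A two-sided exact permutation test of the CPM gave p = 0.0286, the lowest value possible with 4 samples in each genotype. Reads left in the KO amounted to 23.9% of the WT level, in counts of 43 to 81 per sample. Without WT replicate 4 the log2 fold change was -2.15 with an adjusted p of 0.00446 in the same edgeR test. Leaving out WT replicate 1, 2 or 3 gave adjusted p values of 0.0929, 0.0972 and 0.0918 in that test, and leaving out Mvp KO replicate 1, 2 or 4 gave 0.131, 0.126 and 0.147, while over all alternatives the adjusted p ran from 7.99e-22 to 0.147.

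Because the cassette sits in intron 1, transcripts that read past it go on into exon 2, whose sequence is shown for this reason. In the coding transcript Mvp-202, exon 1 is 103 bases long with 2 coding bases, and exon 2 is the first exon downstream of the trap. Capitals mark the first in-frame ATG within it, at base 26.
Mvp exon 2, chr7:127001809-127001958, minus strand: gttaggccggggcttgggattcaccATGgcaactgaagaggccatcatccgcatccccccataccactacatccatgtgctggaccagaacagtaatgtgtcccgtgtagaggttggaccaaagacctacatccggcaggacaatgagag
Counts are per gene, so the share of the remaining reads that lie in exon 2 or beyond was not measured.

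The other genes of the interval did not pass the test. Of the 29, 24 had enough counts to enter the fit, and 0 of the 24 passed an adjusted p of 0.05 in edgeR's test or in DESeq2's Wald test (background 0.00651% of 30700 genes). An unadjusted p under 0.05 was reached by 0 of the 24, against 1.56% of all tested genes, and the genotypes overlapped in all 24, whereas 1.52% of all tested genes had groups that did not overlap (0.692% lower and 0.828% higher in Mvp KO). The smallest p belonged to *Bola2*, at 0.116 (adjusted p = 0.969, edgeR's quasi-likelihood test). Their median log2 fold change was -0.05, beside 0.00 over all tested genes, with 9 values above 0 and 15 below. Over all tested genes, 8457 were above 0 and 8457 below. Without WT replicate 4, 4 of the 24 were above 0 and 20 below, while over all genes in that fit 8865 were above and 8294 below. The median of the 24 stayed at -0.05, and again 0 of them had a p under 0.05 (background 1.34%). The split of signs was not tested, since genes counted in the same samples are not independent. A missed threshold does not show equal levels, and in bulk tissue a change in the number of cells that use a gene and a change in RNA per cell cannot be told apart.

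**Figure D1:**
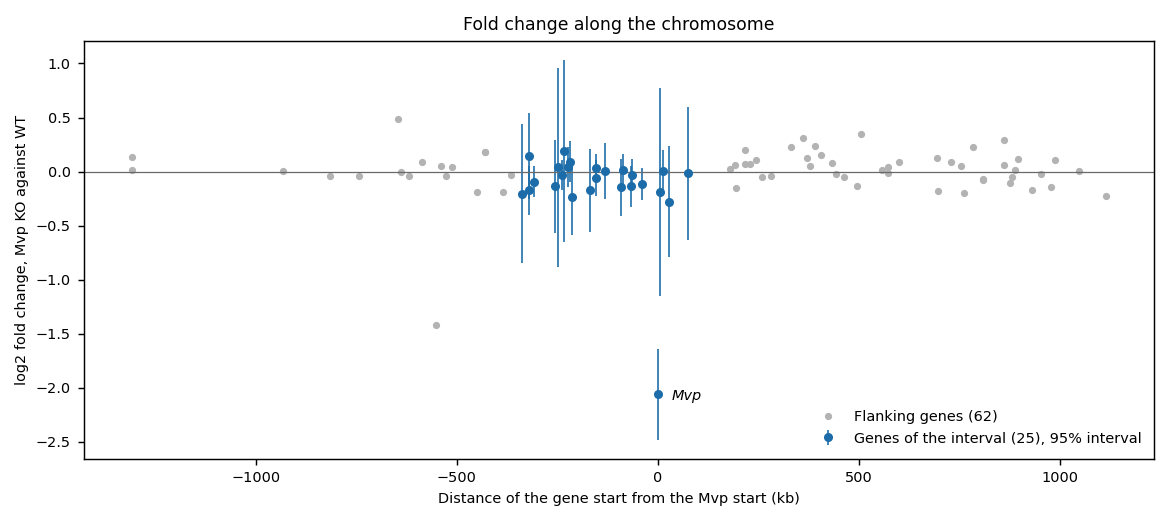
Fold change against position: each point is a tested gene, the x axis is the distance of its start from the Mvp start in kb, and the y axis is the log2 fold change of Mvp KO against WT with 95% intervals for the 25 genes of the interval. Mvp lies at -2.06, and the other 24 lie between -0.28 and 0.19 with intervals that include 0.

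Among flanking protein-coding genes within 1 Mb on either side, 62 of 70 were tested, 0 passed the adjusted threshold, 0 had a p under 0.05, and the median log2 fold change was 0.02. The nearest tested neighbours were *Sgf29* before *Sult1a1*, at -0.03 (standard error 0.125), and *Cd2bp2* after *Spn*, at 0.02 (standard error 0.0732). The lowest flanking point in the plot of fold change by distance is *Atp2a1*, named after its value was seen, at -1.42 with all samples and 0.34 without WT replicate 4.

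Levels per kilobase differed widely between neighbours. CPM per kilobase (RPKM) are used for comparisons between genes, with the length taken as the exonic bases not shared with another gene on the same strand. This length joins the exons of all annotated transcripts of a gene. Which transcripts were present was not measured, so levels, orders and ratios per kilobase depend on this choice of length. In WT, *Aldoa* stood highest at 495 ± 129 RPKM (SD, n = 4), followed by *Ypel3* at 73.7 ± 3.85, *Mapk3* at 67.6 ± 15.7, *Sez6l2* at 62.8 ± 3.57 and *Cdipt* at 59.4 ± 1.11 RPKM. The ranges of neighbours in this order overlapped from *Ypel3* to *Cdipt*, so that their order is not resolved, whereas *Aldoa* was above *Ypel3* and *Cdipt* above *Kctd13* in every WT sample. *Kctd13* (38.4 ± 2.30 RPKM) and *Coro1a* (36.6 ± 2.07 RPKM) overlapped with each other and lay above *Doc2a* (24.1 ± 6.58 RPKM). *Doc2a* overlapped with *Maz* (23.3 ± 0.472 RPKM). *Asphd1* (17.3 ± 1.62 RPKM), *Taok2* (12.4 ± 0.617 RPKM) and *Hirip3* (8.11 ± 0.325 RPKM) then followed without overlap. From *Fam57b* (7.25 ± 0.620 RPKM) and *Ppp4c* (7.10 ± 0.605 RPKM) over *Sult1a1*, *Tmem219*, *Slx1b* and *Ino80e* down to *Bola2* (3.37 ± 0.302 RPKM) each gene overlapped with the next.

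The low end of the order was made up of genes under 1 RPKM, apart from *Prrt2*. *Mvp* itself was among them at 0.938 ± 0.137 RPKM, overlapping with *AI467606* (0.911 ± 0.346 RPKM). The length used for *Mvp*, 7281 bases, is longer than its coding transcript Mvp-202. Its RPKM would be higher if its reads came from that transcript alone, so its place is uncertain. On the lengths used, *Mvp* and *AI467606* were followed by *4930451I11Rik* (0.500), *Tbx6* (0.370), *Gdpd3* (0.293), *Kif22* (0.170), *Qprt* (0.0781) and *Spn* (0.0210 RPKM). *Zg16* had 2 counts, both in Mvp KO replicate 1, and *Pagr1a* had 0 counts in all 8 samples. A count of 0 allows up to 3 counts in a sample, and such limits cover counting error alone. For *Pagr1a* the limit says little, since all but 18 of its 1430 exonic bases are also assigned to a second gene of the same orientation, and the same holds in part for *Prrt2* with 241 unshared of 3159 bases. The RPKM of *Prrt2*, 2.26 ± 0.918, falls to 0.172 if all its exonic bases are used as the length, so its place in the order is uncertain.

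**Figure D2:**
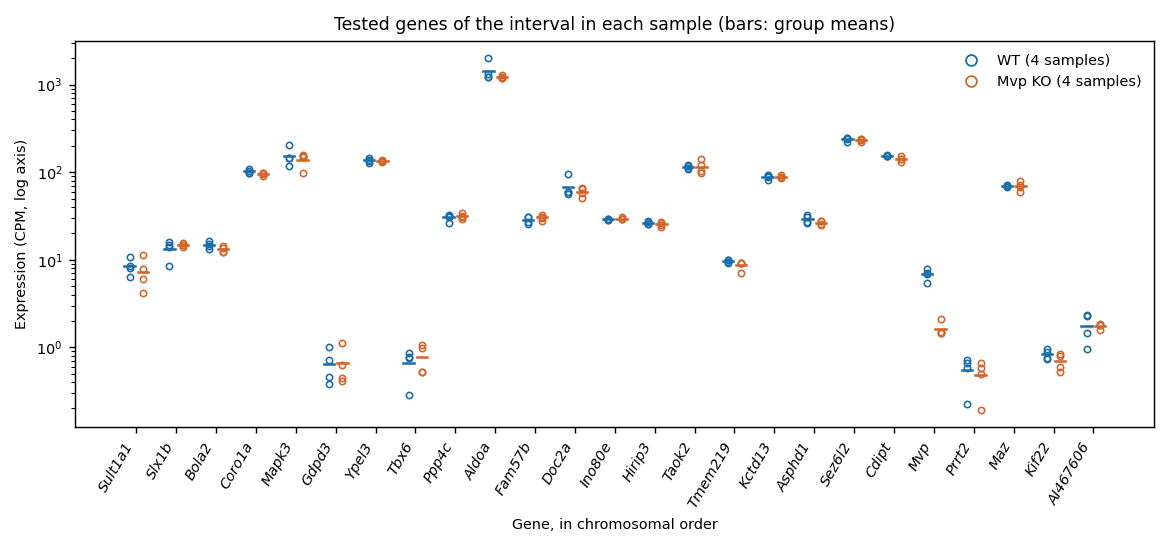
Levels of the 25 tested genes in each sample, in chromosomal order, as CPM on a log axis, with WT in blue, Mvp KO in orange and group means as bars. Mvp is the gene whose groups separate, and the other genes span 0.544 (Prrt2) to 1440 CPM (Aldoa) in WT. For Prrt2, 241 of 3159 exonic bases are unshared, so its value does not measure the level of its RNA.

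The signalling genes are *Mapk3* (ERK1), *Taok2*, an upstream kinase of the MAP kinase cascades, and *Ppp4c*, the catalytic subunit of protein phosphatase 4. *Mapk3* had 203, 119, 144 and 145 CPM in WT and 147, 96.7, 154 and 158 CPM in Mvp KO. Replicate 2 was lowest in both genotypes and WT replicate 1 was highest of all samples. The log2 fold change was -0.13 (95% interval -0.56 to 0.29), and it became 0.03 when WT replicate 1 was left out and 0.0018 when Mvp KO replicate 2 was. *Taok2* had 122, 110, 118 and 111 CPM in WT and 102, 96.8, 122 and 141 CPM in Mvp KO. None of its KO values lay inside the WT range, 2 being below and 2 above it, so that the means were nearly equal (115 ± 5.75 and 116 ± 20.2 CPM, SD, n = 4) while the spread was wider in KO. This difference in spread was noticed in the values and not tested. *Ppp4c* ran from 26.6 to 32.2 CPM in WT and from 29.5 to 33.9 CPM in Mvp KO, which gave a log2 fold change of 0.04 (95% interval -0.14 to 0.23).

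Of the listed relatives of these genes, *Taok1* exceeded *Taok2* by a ratio of 1.29 ± 0.0464 in WT and 1.31 ± 0.213 in Mvp KO (SD, n = 4). The MEK genes *Map2k1* and *Map2k2*, which encode the kinases directly upstream of ERK, had log2 fold changes of -0.13 and -0.06. The 4 regulatory subunit genes of protein phosphatase 4 on the list lay between -0.14 (*Ppp4r2*) and 0.04 (*Ppp4r3b*).

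The genes of the cytoskeleton and of protein turnover are *Coro1a*, an actin-binding coronin abundant in leukocytes, *Kctd13*, which recruits the small GTPase RhoA to a cullin-3 ubiquitin ligase, and *Kif22*, a kinesin of mitotic chromosomes. *Coro1a* had 96.7, 98.0, 103 and 109 CPM in WT and 97.9, 91.6, 97.8 and 94.5 CPM in Mvp KO. WT replicate 4 was its highest sample, and the log2 fold change moved from -0.09 (standard error 0.0637) to -0.05 without it. The microglial markers, all 4 detected, summed to 196 to 212 CPM in WT and 187 to 210 CPM in KO, ranges that overlap. *Kctd13* ran from 80.4 to 92.3 CPM in WT and from 85.4 to 93.0 CPM in KO, with a log2 fold change of 0.01 and a 95% interval of -0.13 to 0.16. Its level per kilobase was 2.04 ± 0.174 times that of its paralog *Kctd10* and 2.27 ± 0.238 times that of *Tnfaip1* in WT. *Cul3* and *Rhoa* had log2 fold changes of -0.20 and -0.11, with p values of 0.243 and 0.0774 in edgeR's test. *Kif22* rests on 220 counts over the 8 samples, with 0.737 to 0.967 CPM in WT and 0.526 to 0.832 CPM in KO, and its log2 fold change of -0.28 (95% interval -0.79 to 0.24) was the lowest among the 24.

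The synaptic and surface genes were led by *Sez6l2*, a surface protein of neurons. It had 219, 247, 242 and 246 CPM in WT and 234, 221, 240 and 239 CPM in Mvp KO. All 4 KO values lay inside the WT range, and the log2 fold change was -0.03 (95% interval -0.18 to 0.12). Per kilobase, *Sez6l2* exceeded its relatives *Sez6l* (ratio 1.46 ± 0.181) and *Sez6* (2.57 ± 0.593) in WT. *Doc2a*, a calcium sensor of transmitter release, had 59.3, 56.4, 59.5 and 95.2 CPM in WT and 58.0, 50.7, 66.5 and 64.4 CPM in Mvp KO. WT replicate 4 was high, and the log2 fold change turned from -0.17 (95% interval -0.56 to 0.21) to 0.04 (-0.17 to 0.25) without it. Per kilobase *Doc2a* was 7.16 ± 1.93 times as high as *Doc2b* in WT. *Tmem219*, a receptor for the binding protein IGFBP3, had 9.11, 9.35, 9.997 and 9.91 CPM in WT and 9.11, 9.29, 9.21 and 7.05 CPM in KO. The last KO sample stood below the rest, and the log2 fold change was -0.14 (95% interval -0.41 to 0.12).

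*Prrt2*, a presynaptic protein that binds SNAP25, had 0.708, 0.668, 0.576 and 0.222 CPM in WT and 0.499, 0.194, 0.579 and 0.667 CPM in Mvp KO. WT replicate 4 and KO replicate 2 were low, and the log2 fold change moved from -0.19 (95% interval -1.15 to 0.77) to -0.43 without WT replicate 4 and to 0.08 without KO replicate 2. As 241 of its 3159 exonic bases are unshared, these counts do not measure the level of its RNA. Its partners *Snap25*, *Stx1a* and *Syt1* were counted at 496, 118 and 276 RPKM in WT. *Spn*, the leukocyte surface protein CD43, had 3, 4, 3 and 4 counts in WT and 12, 4, 9 and 5 counts in KO and was below the filter of the test, and *Zg16*, a secreted lectin of the gut and pancreas, was described above.

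The metabolic genes include the most abundant RNA of the interval. *Aldoa*, the aldolase of glycolysis, had 1226, 1222, 1314 and 1999 CPM in WT and 1202, 1216, 1276 and 1190 CPM in Mvp KO. WT replicate 4 was far above the other 7, which lay close together. The log2 fold change was -0.24 (95% interval -0.58 to 0.11) with it and -0.04 (95% interval -0.17 to 0.10) without it. *Aldoa* held 47.2% to 59.9% of all reads counted on the 30 genes, and the whole interval held 0.243% to 0.302% of a sample's counts. A second identifier that carries the name *Aldoa*, upstream on the same strand from 126800790 to 126809108, had 35 to 66 counts per sample and is not included here. *Aldoc*, the aldolase best known from brain, was at 248 ± 17.4 RPKM in WT, and its log2 fold change of -0.17 had an unadjusted p of 0.0490 (adjusted p = 0.969, edgeR's quasi-likelihood test).

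*Cdipt*, which makes phosphatidylinositol, had 153, 153, 158 and 152 CPM in WT and 132, 141, 155 and 143 CPM in Mvp KO. Mvp KO replicates 1, 2 and 4 were below each WT sample and replicate 3 was not. The log2 fold change was -0.11 with WT replicate 4 (95% interval -0.26 to 0.04) and without it (95% interval -0.26 to 0.03). *Bola2*, which handles iron-sulfur clusters with the glutaredoxin *Glrx3*, had 13.3, 15.3, 14.2 and 16.4 CPM in WT and 14.4, 12.3, 12.2 and 13.6 CPM in KO. Both groups overlapped between 13.3 and 14.4 CPM, and the log2 fold change was -0.17 (95% interval -0.40 to 0.05). *Fam57b*, a relative of the ceramide synthases, ran from 25.9 to 30.6 CPM in WT and from 28.02 to 32.7 CPM in KO (log2 fold change 0.09, 95% interval -0.10 to 0.28). Its sign stayed positive in all alternatives run, between 0.05 and 0.13.

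*Sult1a1*, a phenol sulfotransferase, had 8.55, 8.04, 10.7 and 6.29 CPM in WT and 6.01, 4.19, 11.23 and 7.79 CPM in Mvp KO. Replicate 3 was highest in both genotypes, and the log2 fold change was -0.20 with a wide 95% interval of -0.84 to 0.44. Without WT replicate 4 the log2 fold change was -0.31. The brain form *Sult4a1* was far higher per kilobase, at 196 ± 22.1 RPKM in WT against 5.58 ± 1.22 RPKM for *Sult1a1*. *Gdpd3*, a lysophospholipase D, rests on 186 counts over the 8 samples. Its log2 fold change was 0.04 (95% interval -0.88 to 0.96) with WT replicate 4 and -0.12 without it. *Qprt*, which turns quinolinate into a precursor of NAD, had 65 counts in all and was not tested. The kynurenine pathway genes *Kynu* and *Haao* next to it in the pathway were also under the filter, whereas the NAD salvage gene *Nampt* was at 16.7 ± 1.47 RPKM in WT.

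The nuclear genes act on transcription, chromatin or DNA repair. *Maz*, a zinc finger transcription factor, had 71.0, 69.8, 69.3 and 67.6 CPM in WT and 70.9, 59.3, 68.3 and 79.7 CPM in Mvp KO. The WT values lay close together and the KO values spread around them, with a log2 fold change of 0.00 (95% interval -0.19 to 0.20). *Ino80e*, a subunit of the INO80 chromatin remodeller, had 29.4, 29.0, 28.6 and 28.4 CPM in WT and 29.1, 28.8, 29.4 and 30.5 CPM in KO. Its 95% interval ran from -0.11 to 0.17. *Hirip3*, a histone-binding partner of HIRA, ran from 25.5 to 27.8 CPM in WT and from 23.4 to 27.2 CPM in KO, with a log2 fold change of -0.06. The listed INO80 genes *Ino80*, *Ino80b* and *Ino80c* lay between -0.09 and 0.03, and *Hira* was at 0.08.

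*Slx1b*, a nuclease that works with SLX4, had 14.1, 14.7, 16.1 and 8.41 CPM in WT and 15.6, 14.9, 14.0 and 14.6 CPM in Mvp KO. WT replicate 4 was below all other samples, and the log2 fold change moved from 0.15 to -0.01 without it. *Tbx6*, a T-box factor of the embryonic mesoderm, rests on 207 counts over the 8 samples, with 0.286 to 0.855 CPM in WT and 0.526 to 1.05 CPM in KO. Its log2 fold change of 0.19 had a 95% interval of -0.65 to 1.03 and became -0.05 without WT replicate 4. *Pagr1a*, a subunit of a histone methyltransferase complex, could not be counted, while the complex genes *Kmt2c*, *Kmt2d*, *Kdm6a* and *Paxip1* had 3.80 to 4.90 RPKM in WT.

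Less is known of *Ypel3*, *Asphd1*, *AI467606* and *4930451I11Rik*. *Ypel3* had 127, 145, 138 and 135 CPM in WT and 137, 130, 134 and 133 CPM in Mvp KO, all 4 KO values lying inside the WT range. It was the highest of the Ypel family on the list, at 3.32 ± 0.455 times the level of *Ypel5* per kilobase in WT. *Asphd1*, which carries an aspartate beta-hydroxylase domain, had 26.4, 32.1, 30.4 and 27.0 CPM in WT and 24.9, 27.8, 27.4 and 25.5 CPM in KO. Its log2 fold change was -0.13 (95% interval -0.33 to 0.06) and, without WT replicate 4, -0.16 with a p of 0.0763 in edgeR's test, the smallest of the 24 in that fit. With limma's voom and sample weights it was -0.16 with an unadjusted p of 0.0441 (adjusted p = 0.9997), and *Asphd1* was the 1 gene of the 24 with an unadjusted p under 0.05 there, beside 3.28% of all genes in that fit. *AI467606* had 2.27, 2.35, 1.47 and 0.953 CPM in WT and 1.80, 1.58, 1.79 and 1.82 CPM in KO, and its log2 fold change moved from -0.02 to -0.22 without WT replicate 4.

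**Figure D3:**
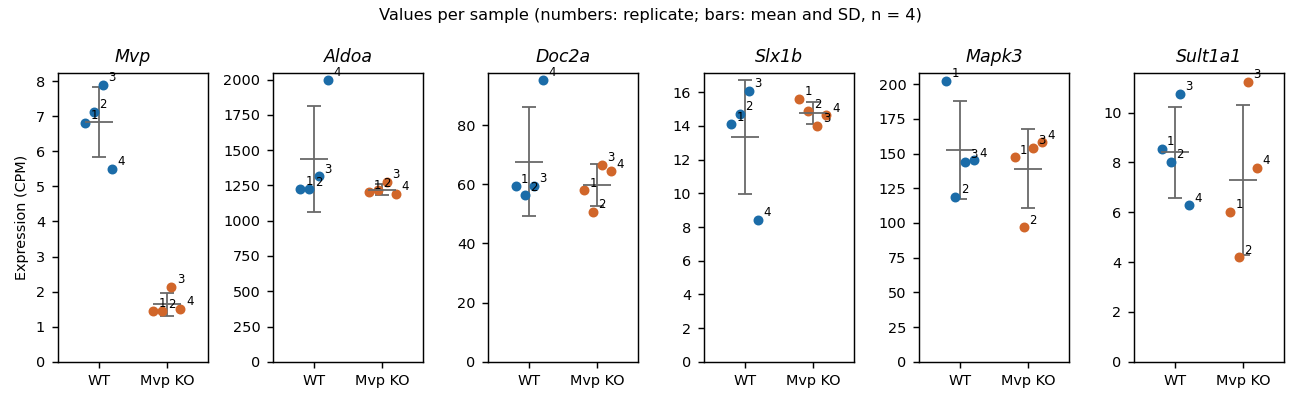
CPM per sample for Mvp, Aldoa, Doc2a, Slx1b, Mapk3 and Sult1a1, with replicate numbers beside the points and mean and SD as bars; each y axis starts at 0. WT replicate 4 is high for Aldoa (1999 CPM) and Doc2a (95.2 CPM) and low for Slx1b (8.41 CPM), and replicate 2 is low for Mapk3 in both genotypes.

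WT replicate 4 had 1.63 times the mean of the other WT samples for *Doc2a*. For *Aldoa* the same ratio was 1.59. It was lowest for *Prrt2* (0.342), *Tbx6* (0.359), *AI467606* (0.469), *Gdpd3* (0.524), *Slx1b* (0.562) and *Sult1a1* (0.690). Of the 24 genes other than *Mvp*, 4 were highest of all 8 samples in WT replicate 4 (*Bola2*, *Coro1a*, *Aldoa* and *Doc2a*) and 6 were lowest (*Slx1b*, *Gdpd3*, *Tbx6*, *Ppp4c*, *Ino80e* and *AI467606*). These 10 of 24 stand beside 61.7% of all tested genes that had their extreme in this sample. The part of the neuronal activity and interneuron markers, which were also highest in it, was not tested.

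Spread between WT samples had a median coefficient of variation of 8.76% over the 24 genes, beside 14.4% over all tested genes, and of 6.41% and 7.67% without WT replicate 4. At a WT level of 100 CPM or more, the 7 genes of the interval had a median of 5.66%, beside 9.66% for the 2436 genes of that level. From 10 to 100 CPM, the 10 genes had a median of 8.53%, beside 10.3%, and below 10 CPM the 7 genes had 38.0%, beside 24.0%. These gaps rest on WT replicate 4. Without it the medians were 5.18% beside 4.53% at 100 CPM or more, 5.26% beside 5.49% from 10 to 100 CPM and 15.8% beside 16.1% below 10 CPM. The smallest values were those of *Ino80e* (1.64%), *Cdipt* (1.87%) and *Maz* (2.02%), where counting error alone would give 3.11%, 1.35% and 2.00%. *Mapk3*, at 23.2%, stood out among the abundant genes, as counting error alone would give 1.36%, and without WT replicate 4 it was 27.7% while that of *Aldoa* dropped from 26.0% to 4.13%.

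**Figure D4:**
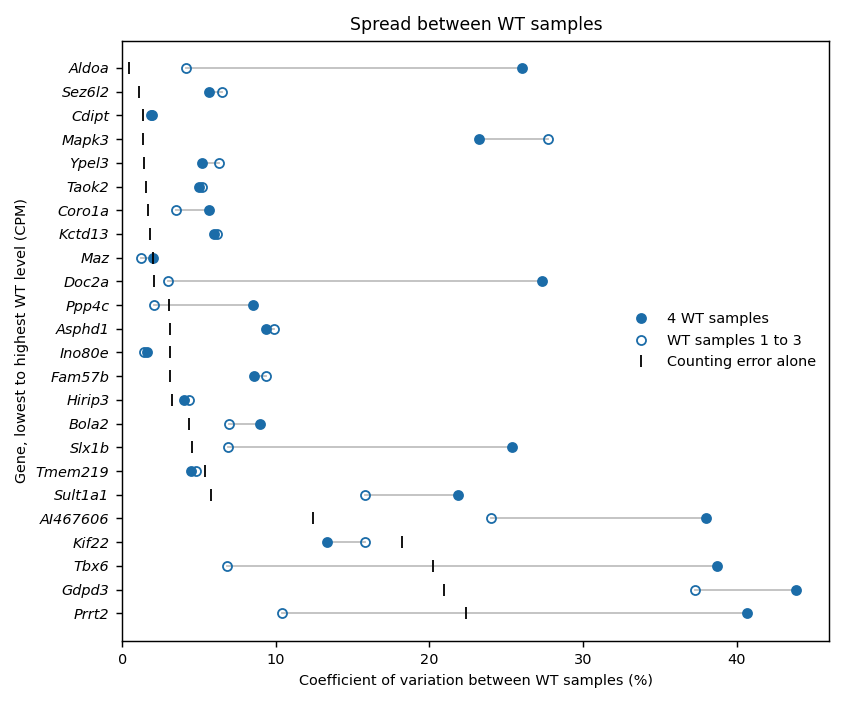
Coefficient of variation in percent between WT samples for the 24 tested genes other than Mvp, sorted by WT level, with all 4 samples (filled), without WT replicate 4 (open) and counting error alone (tick). Aldoa, Doc2a and Slx1b move to the left without this sample, and Mapk3 stays at over 20%.

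The listed paralogs and partners of the 30 genes number 68, of which 66 were tested. Of these, 0 passed the adjusted threshold and 1, *Aldoc*, had an unadjusted p under 0.05, beside 1.56% of all tested genes. Their median log2 fold change was -0.04, with 23 above 0 and 43 below, from -0.42 (*Coro1c*) to 0.24 (*Kif4*). Beside them stand 8457 above 0 and 8457 below over all tested genes, and this split was not tested either. Of the vault partners of *Mvp*, the poly(ADP-ribose) polymerase *Parp4* was at 0.772 ± 0.0305 RPKM in WT and *Tep1* at 0.707 ± 0.0340 RPKM. *Mvp* stood beside them at 0.938 ± 0.137 RPKM, on a length of 7281 bases. Its RPKM would be higher if its reads came from the shorter Mvp-202 alone, so these levels are not read as equal.

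**Figure D5:**
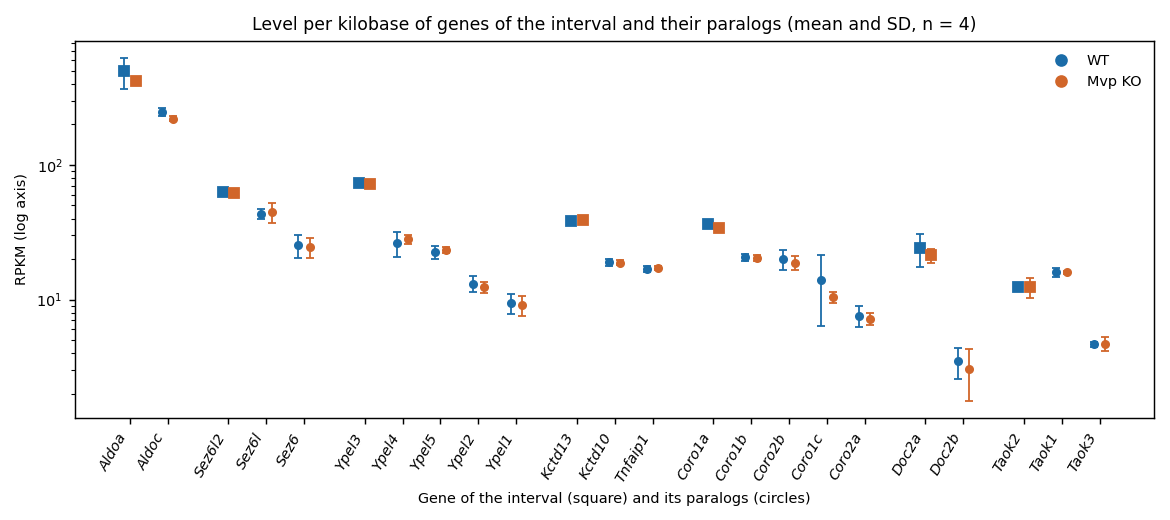
RPKM on a log axis, mean and SD over 4 samples, for 7 genes of the interval (squares) and their paralogs (circles) in WT (blue) and Mvp KO (orange). Taok2 lies below its paralog Taok1, whereas Aldoa, Sez6l2, Ypel3, Kctd13, Coro1a and Doc2a lie above theirs.

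Some neighbours start back to back. The starts of *Slx1b* and *Bola2* overlap by 383 bases and those of *Ino80e* and *Hirip3* by 405 bases, while *Asphd1* and *Sez6l2* start 981 bases apart. Of *Slx1b* and *Bola2*, 1 was lowest and the other highest in WT replicate 4. In the KO comparison their log2 fold changes were 0.15 and -0.17, those of *Ino80e* and *Hirip3* were 0.03 and -0.06, and those of *Asphd1* and *Sez6l2* were -0.13 and -0.03. Of the exonic bases of *Doc2a*, 39.4% face a gene on the other strand, *Ino80e*, and the sources used here do not state whether counting used the strand. Of 473 genes whose exons lie at least 99% opposite another gene, 195 had counts, whereas of 679 genes wholly shared on the same strand 16 did.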

How the data were processed

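The authors prepared stranded poly(A) libraries and deposited 1 table of raw counts per gene, made per the labels and methods with cutadapt 1.10, Bowtie2 2.2.8 (removal of ribosomal reads), STAR 2.5.3a on mm10 and HTSeq 0.6.1p1; the counting mode and strand setting are not given in the sources used here. All count columns were used. Gene symbols and coordinates came from GENCODE vM21, another release than the Ensembl annotation of the authors, and 53274 of 53379 identifiers matched. Promoter sequences came from RefSeq.

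The analysis used edgeR 4.0.16 under R 4.3.3: filterByExpr defaults (minimum count 10, minimum total 15), TMM scaling, a robust quasi-likelihood fit with genotype as single term, and Benjamini-Hochberg adjustment over 16914 genes, threshold 0.05. CPM use TMM-scaled library sizes. Alternatives were DESeq2 1.42.0 (Wald test, and its size factors), limma 3.58.1 (voom with sample weights), other filters, non-robust dispersions, a replicate block and leaving out each sample. The fits were tested on simulated data. Same-numbered samples were not paired in the main fit, since the labels do not say what the replicate number stands for. The correlations of same-numbered deviations were 0.0548, 0.287, -0.0067 and 0.0507, too few values to decide whether equal numbers share a batch. Python 3.11.15 and matplotlib 3.10.9 were used for tables and plots. The genes named were the 30 of the interval, the listed paralogs and partners, the nearest flanking genes and the markers. The 30 genes and the lists were chosen with earlier results of these data known. A listed item is not reported here.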

Additional observations from a re-analysis of the deposited data

Results flagged for a closer look

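In 50 groups of 4 samples (25 tested genes, each genotype), the gap from the most extreme sample to its neighbour was set against the range of the group. The ratio exceeded Dixon's 95% critical value in 5 groups, where chance gives about 2.5. *Aldoa* (ratio 0.882) and *Doc2a* (ratio 0.920) were flagged for WT replicate 4. *Tmem219* in Mvp KO replicate 4 lay below the other KO samples, at 7.05 against 9.11 to 9.29 CPM (ratio 0.916). *Mvp* in Mvp KO replicate 3 lay above them, at 2.13 against 1.44 to 1.51 CPM (ratio 0.903). *AI467606* in Mvp KO replicate 2 lay below them, at 1.58 against 1.79 to 1.82 CPM (ratio 0.851). Causes were not tested.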

How the results depend on the processing

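Over 708 alternative values of 79 results, 640 gave the same call and sign or shifted by less than the replicate spread. The adjusted p of the 24 genes other than *Mvp* was at least 0.846 throughout. The count of genes past the threshold was 2 with DESeq2's Wald test, 0 with the replicate block and 0 to 1 with a sample left out. *Mvp* was at -2.07 with the replicate block (adjusted p = 0.0850, edgeR) and at -2.22 to -1.99 with a sample left out, passing in 2 of 8 fits. The cause was not tested. Signs turned for 11 genes, none over 0.19 in size in the reported fit. *Maz* was at -0.0018 with DESeq2 size factors, -0.00094 with DESeq2's Wald test and -0.0048 with the block, where *Taok2* was at -0.0100 and *AI467606* at 0.046. With voom, *Slx1b* was at -0.058, *Gdpd3* -0.31, *Tbx6* -0.18, *Ppp4c* -0.043 and *Doc2a* 0.068. With a sample left out, values ran from -0.015 to 0.25 (*Slx1b*), -0.24 to 0.029 (*Mapk3*), -0.37 to 0.33 (*Gdpd3*), -0.048 to 0.34 (*Tbx6*), -0.012 to 0.072 (*Ppp4c*), -0.26 to 0.040 (*Doc2a*), -0.11 to 0.078 (*Taok2*), -0.030 to 0.041 (*Kctd13*), -0.43 to 0.075 (*Prrt2*), -0.071 to 0.069 (*Maz*) and -0.22 to 0.16 (*AI467606*). Of 264 levels and coefficients of variation, 19 moved by more than the spread. For *Sult1a1*, *Gdpd3*, *Tbx6*, *Prrt2*, *Kif22* and *AI467606* the 95% interval reaches beyond 1.5-fold, and fewer counts and wider spread limit what can be seen in them. No paired analysis is read further, since the meaning of the replicate numbers is not given. The replicate block changed no other call.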
